A study of Homo sapiens with 8 samples.

Results

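The IFI and IFITM genes are interferon-induced genes named for that property, and 9 of them were followed here: IFITM1, IFITM2, IFITM3, IFI6, IFI27, IFI44L, IFI44, IFI16 and IFI35. The measurement was H3K27ac, an acetylated form of histone H3 that marks active promoters and enhancers, by chromatin immunoprecipitation and sequencing. A peak was taken for a gene when the authors' annotation named the gene's transcription start inside it, when it overlapped the gene on GRCh38, or when the gene was its nearest named start upstream or downstream within 50 kb. This gave 13 of the 31961 peaks in the table. Of these, 7 held the start of at least 1 of the genes and are called promoter peaks, with 1 peak shared by IFITM1, IFITM2 and IFITM3. The other 6, called flank peaks, lay 8.074 to 37.364 kb from the start of IFI6, IFI44, IFI27 or IFI35. The farthest peak inside the limit belonged to IFI44 at 37.364 kb, and the nearest outside it belonged to IFI6 at 52.894 kb, with a mean score of 18.2 with hIFNb and 9.75 in untreated libraries.

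All clones derive from CFPAC1 cells, a line grown from a human pancreatic ductal adenocarcinoma. IRF1-guide clones 11 and 13 carried lentiCRISPRv2 with wild-type Cas9 and a guide that targets IRF1, a transcription factor itself induced by interferon, and control clones 1 and 4 carried the plasmid with no guide named. Each clone gave 1 library after 2 h with hIFNb, read here as human interferon beta, and 1 untreated library, so that the 4 groups held 2 libraries each, of 2 clones. The labels do not say whether the guide removed the IRF1 protein, each clone is a single clone, and with 2 clones a genotype an effect of the guide and a difference between clones cannot be told apart with certainty.

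Interferon beta binds a receptor made of IFNAR1 and IFNAR2, whose kinases JAK1 and TYK2 phosphorylate STAT2 and related factors. STAT2 acts with IRF9 in ISGF3, a complex that binds the interferon-stimulated response element (ISRE) in promoters. A second element of interferon-induced promoters is the gamma-activated sequence (GAS). IRF1 recognises elements much like the ISRE. The genes followed here are among the well-known targets of this pathway in epithelial cells.

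The promoters are shown first, because the H3K27ac values below are those of the peaks that hold them. RefSeq promoter sequences on GRCh38.p14, from 250 bases before to 50 bases after the start, were at hand for 8 of the 9 genes, with 11 promoters in all, each inside its gene's promoter peak. The ISRE core was searched as GAAA and GAAA separated by any 2 bases on the printed strand, or TTTC and TTTC separated by any 2 bases for the other strand. The GAS core was searched as TTC and GAA separated by any 3 bases, which reads the same on both strands. Promoters of genes with an ISRE core are printed, 1 for each gene, with the core in capitals, followed by the 2 genes with none. Each runs 5′ to 3′ along the strand of its gene. IFITM1 lies at chr11:313790-314089 (+), IFITM3 at chr11:320811-321110 (-), IFI6 at chr1:27672143-27672442 (-), IFI27 at chr14:94110486-94110785 (+), IFI44L at chr1:78620198-78620497 (+), IFI44 at chr1:78649539-78649838 (+), IFI35 at chr17:43006534-43006833 (+) and IFI16 at chr1:159008741-159009040 (+).
IFITM1: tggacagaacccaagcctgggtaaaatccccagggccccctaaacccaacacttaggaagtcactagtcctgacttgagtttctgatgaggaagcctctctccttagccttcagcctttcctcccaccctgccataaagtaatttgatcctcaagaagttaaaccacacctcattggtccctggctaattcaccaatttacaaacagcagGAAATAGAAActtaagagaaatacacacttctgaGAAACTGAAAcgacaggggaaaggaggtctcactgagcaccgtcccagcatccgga
IFITM3: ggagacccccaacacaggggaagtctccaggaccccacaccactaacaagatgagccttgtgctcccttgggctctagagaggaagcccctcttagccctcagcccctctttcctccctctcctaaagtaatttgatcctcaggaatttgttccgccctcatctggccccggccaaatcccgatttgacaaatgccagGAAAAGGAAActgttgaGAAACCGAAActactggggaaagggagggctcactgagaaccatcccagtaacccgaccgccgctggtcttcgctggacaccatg
IFI6: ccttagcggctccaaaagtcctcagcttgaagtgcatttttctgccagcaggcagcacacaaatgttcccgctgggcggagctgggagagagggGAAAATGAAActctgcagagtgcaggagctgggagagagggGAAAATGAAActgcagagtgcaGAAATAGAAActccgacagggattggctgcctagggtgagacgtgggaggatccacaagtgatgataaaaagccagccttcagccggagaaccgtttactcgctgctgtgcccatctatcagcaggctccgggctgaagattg
IFI27: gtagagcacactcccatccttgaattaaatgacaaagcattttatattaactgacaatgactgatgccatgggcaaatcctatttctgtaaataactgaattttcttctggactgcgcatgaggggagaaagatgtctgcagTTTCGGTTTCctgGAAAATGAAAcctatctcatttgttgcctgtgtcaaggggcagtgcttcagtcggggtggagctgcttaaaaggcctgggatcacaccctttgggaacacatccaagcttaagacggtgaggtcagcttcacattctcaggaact
IFI44L: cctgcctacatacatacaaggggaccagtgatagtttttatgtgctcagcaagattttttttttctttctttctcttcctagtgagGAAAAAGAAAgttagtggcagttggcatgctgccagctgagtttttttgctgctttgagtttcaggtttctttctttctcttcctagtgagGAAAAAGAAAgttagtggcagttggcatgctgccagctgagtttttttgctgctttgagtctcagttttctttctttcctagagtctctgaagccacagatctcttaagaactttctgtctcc
IFI44: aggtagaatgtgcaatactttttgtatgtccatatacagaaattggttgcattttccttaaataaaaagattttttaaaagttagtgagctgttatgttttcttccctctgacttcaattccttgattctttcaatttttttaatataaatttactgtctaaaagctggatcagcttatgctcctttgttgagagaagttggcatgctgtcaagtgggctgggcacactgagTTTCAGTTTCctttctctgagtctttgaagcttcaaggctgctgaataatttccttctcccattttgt
IFI35: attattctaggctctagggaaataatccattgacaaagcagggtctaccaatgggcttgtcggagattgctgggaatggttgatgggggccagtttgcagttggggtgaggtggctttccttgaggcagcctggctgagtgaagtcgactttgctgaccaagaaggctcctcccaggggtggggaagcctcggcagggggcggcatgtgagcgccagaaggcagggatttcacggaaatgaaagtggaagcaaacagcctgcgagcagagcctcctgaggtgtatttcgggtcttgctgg
IFI16: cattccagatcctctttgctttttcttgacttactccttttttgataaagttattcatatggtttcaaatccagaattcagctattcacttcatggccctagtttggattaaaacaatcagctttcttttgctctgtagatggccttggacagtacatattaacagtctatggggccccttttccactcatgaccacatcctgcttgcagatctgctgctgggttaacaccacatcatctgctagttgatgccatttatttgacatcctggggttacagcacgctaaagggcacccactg

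An ISRE core was found in 8 of the 11 promoters of these genes (72.7%), against 18 of 33 promoters of other antiviral interferon-stimulated genes (54.5%) and 3.57% of all 35116 RefSeq promoters of the same length. IFI6 held 3 cores, beginning 156, 115 and 93 bases before the start. IFITM1, IFITM3, IFI27 and IFI44L held 2 each and IFI44 held 1. IFI27 and IFI44 each had 2 overlapping promoters that held the same cores, so these sites were counted in both. The shares are thus of promoters, not of genes or separate sites. In IFI44L the pair, at 164 and 73 bases before the start, had the same letters, GAAAAAGAAA. In IFITM1 the second core began 6 bases before the start and ended 3 bases after it. In IFI27 the cores lay on opposite strands at 108 and 95 bases before the start, with the GAS core TTCCTGGAA at 101 bases overlapping both.

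A GAS core was found in 4 of the 11 promoters (36.4%), against 4 of 33 promoters of the other antiviral genes (12.1%) and 7.66% of all promoters. Both overlapping IFI27 promoters were among the 4, with the same GAS core. Besides IFI27, it was present in IFITM1 as TTCTGAGAA at 12 bases before the start, overlapping an ISRE core, and in IFI35 as TTCACGGAA at 22 bases. The IFI16 promoters in the table held neither core in these windows. The IFI16 gene model begins upstream of them, inside the same peak, and the sequence there was not analysed here. Aligned end to end, the IFITM3 and IFITM1 promoters shared 213 of 335 positions (63.6%), and the IFI44L and IFI44 promoters shared 190 of 351 (54.1%). Across the table, 129 of 778 promoters inside a peak called higher with hIFNb held an ISRE core (16.6%), against 371 of 13650 promoters inside any other peak (2.72%). A match is a description of letters and not of a bound factor.

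Values below are the authors' normalised counts per peak, called scores, with 1 value for each library. Totals of the scores over all peaks were 3277561 to 3317881 in the 4 libraries of IRF1-guide clones and 3408527 to 3460390 in the 4 of control clones, and read depth is unknown. Changes are differences in log2(score + 1) with the standard error (SE) from limma, tested against the spread between clones, and p-values are Benjamini-Hochberg adjusted over all 31961 peaks, with a call at an adjusted p under 0.05. Peaks were given to genes outside the 9 by name, a RefSeq start within 2 kb or, with no start listed, overlap with the gene. This gave peaks for 9 of 10 epithelial markers of the pancreatic duct, with mean scores of 108.4 to 5072.6 and none for CFTR. The same rule gave peaks for 2 of 6 leukocyte markers, with none for PTPRC. It gave peaks for 1 of 5 fibroblast and 3 of 4 endothelial markers, with mean scores of 10.8 to 237.4 over these 3 lists. None of these marker peaks was called with hIFNb over all clones between clones. With the clone as a block, 2 ductal peaks were called higher and 1 lower, and 1 endothelial peak higher and 1 lower. The peak that holds the start of IRF1, which is 64.2 kb wide, had scores of 2265 and 2033 in IRF1-guide clones 11 and 13 with hIFNb, 1332 and 1187 in the same clones untreated, 3003 and 2159 in control clones 1 and 4 with hIFNb, and 2014 and 1306 in those clones untreated. H3K27ac over a peak of this width does not show whether the IRF1 reading frame was cut.

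H3K27ac rose with hIFNb at the promoter peaks of all 9 genes. Over all clones, 7 of the 13 peaks were called higher and none lower, against a background of 6.55% of all peaks called higher and 2.58% called lower. The 7 were the 7 promoter peaks, and 0 of the 6 flank peaks were called in that model. The median change was 1.03 at the promoter peaks, 0.374 at the flank peaks, 0.11 at all 9903 peaks that hold a start and -0.000149 at all peaks. At 6 of the 7 promoter peaks all 4 libraries with hIFNb lay above all 4 untreated libraries, which held for 7.22% of all peaks and for 0 of the 6 flank peaks. In each of the 4 clones the hIFNb library was above the untreated one at all 7 promoter peaks, as at 19.9% of all peaks. The plot of scores by library shows this separation, with IFI16 as the exception.

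**Figure D1:**
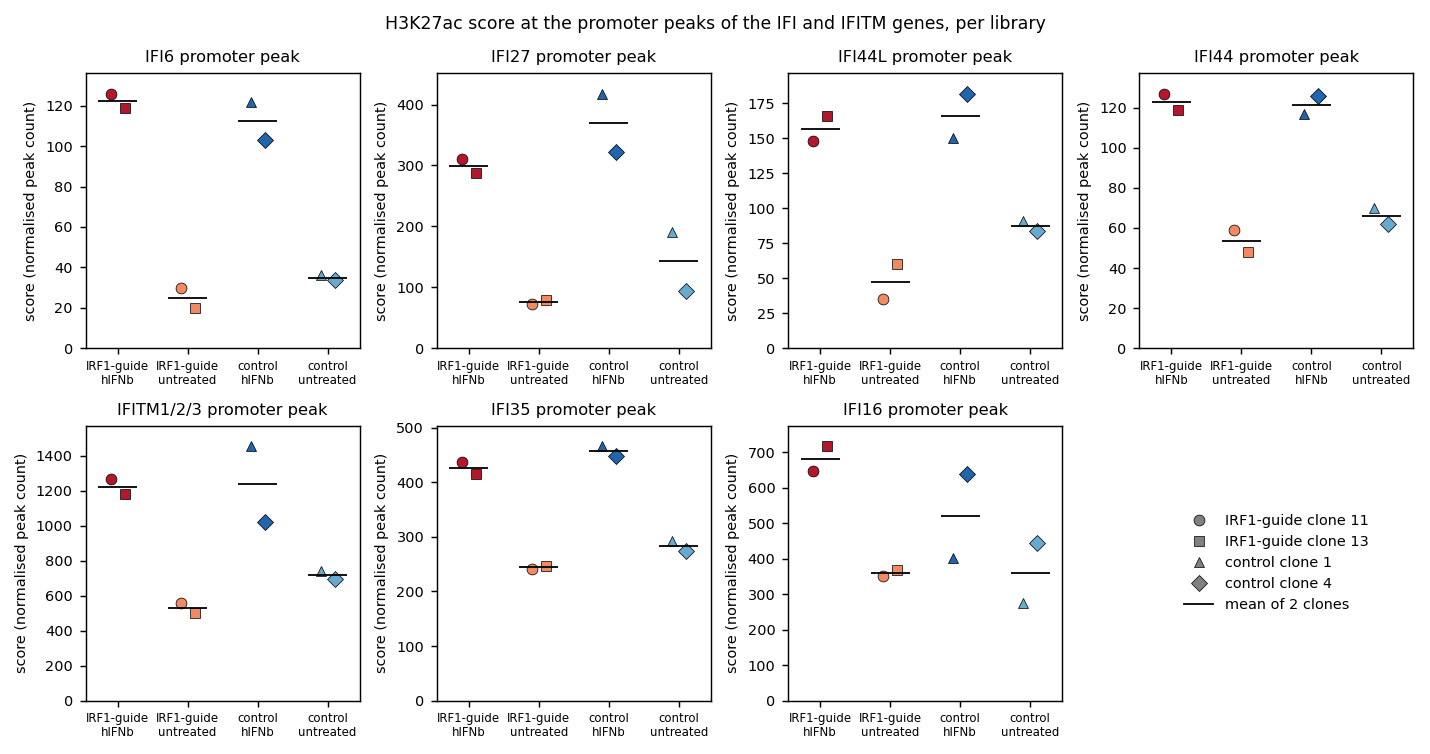
Score (authors' normalised count, linear axis from 0) at each of the 7 promoter peaks, 1 panel a peak, with 1 point a library and the 4 groups side by side. Libraries with hIFNb lie above untreated ones in each clone. The ranges of all 4 hIFNb and all 4 untreated libraries overlap only at IFI16, with 403 to 718 for hIFNb and 274 to 443 for untreated ones.

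IFITM1, IFITM2 and IFITM3 encode small membrane proteins that block the entry of many enveloped viruses by acting on membrane fusion. Their starts lay in 1 peak of 24.1 kb on chromosome 11, from 305482 to 329610, so the values belong to the cluster and not to a single gene. Its scores were 1266 and 1178 in IRF1-guide clones 11 and 13 with hIFNb, against 560 and 503 in the same clones untreated. In control clones 1 and 4 they were 1455 and 1022 with hIFNb, against 740 and 697 untreated. Every hIFNb library was above every untreated one, and control clone 1 with hIFNb was the highest of the 8. The change over all clones was 0.98 ± 0.124 (limma adjusted p = 0.00108), a 1.97-fold difference. Per kb of peak the cluster had the highest mean score of the 7 promoter peaks in each of the 4 groups, with 50.6 in IRF1-guide clones with hIFNb, 22.0 in IRF1-guide clones untreated, 51.3 in control clones with hIFNb and 29.8 in control clones untreated.

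IFI6 and IFI27 encode small hydrophobic membrane proteins of the same family, IFI6 being known as an interferon-induced protein that counters apoptosis and restricts flaviviruses, and IFI27 as a protein of the mitochondrial and nuclear membranes. The IFI6 peak, 4.61 kb wide on chromosome 1 from 27670597 to 27675205, covered the start and the part of the gene next to it. Its scores were 126 and 119 in IRF1-guide clones 11 and 13 with hIFNb, against 30 and 20 untreated, and 122 and 103 in control clones 1 and 4 with hIFNb, against 36 and 34 untreated. The lowest library with hIFNb was thus well above the highest untreated one. The change over all clones was 1.96 ± 0.188 (limma adjusted p = 0.000254), the largest of the 7, and 404th of 31961 peaks when ordered by log2 change.

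The IFI27 peak spanned 9.17 kb on chromosome 14, from 94104348 to 94113517. It scored 310 and 287 in IRF1-guide clones 11 and 13 with hIFNb, against 72 and 80 untreated. In control clones 1 and 4 the scores were 418 and 322 with hIFNb, against 191 and 94 untreated. Control clone 1 was the highest of its group in both conditions, and its untreated library stood apart from the other untreated ones without reaching the hIFNb libraries. IFI27 rose by 1.70 ± 0.209 over all clones (limma adjusted p = 0.000925), a 3.26-fold difference.

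IFI44L and IFI44 are neighbouring, related genes on chromosome 1 whose products have been described as antiviral or growth-limiting in cultured cells. The IFI44L peak (7.26 kb, from 78616201 to 78623462) had scores of 148 and 166 in IRF1-guide clones 11 and 13 with hIFNb, against 35 and 60 untreated, and of 150 and 182 in control clones 1 and 4 with hIFNb, against 91 and 84 untreated. Untreated IRF1-guide clones were the lowest 2 libraries, while the hIFNb libraries of the genotypes overlapped. Over all clones IFI44L rose by 1.33 ± 0.191 (limma adjusted p = 0.00223).

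At IFI44 (5.06 kb, from 78647684 to 78652739) the scores were 127 and 119 in IRF1-guide clones 11 and 13 with hIFNb, against 59 and 48 untreated. The control clones 1 and 4 had 117 and 126 with hIFNb, against 70 and 62 untreated. The 4 hIFNb libraries of IFI44 lay within 10 score units of each other. Its change over all clones was 1.03 ± 0.157 (limma adjusted p = 0.00311), a 2.05-fold difference.

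IFI35 encodes a leucine-zipper protein that pairs with NMI in the cytoplasm. Its start lay in a 15.4 kb peak on chromosome 17, from 42996885 to 43012326, that also covered RPL27, a ribosomal protein gene, and that the authors' annotation names for RPL27. The scores of this peak were 437 and 416 in IRF1-guide clones 11 and 13 with hIFNb, against 242 and 246 untreated, and 467 and 449 in control clones 1 and 4 with hIFNb, against 292 and 275 untreated. Clones of 1 group were close to each other, and the 4 hIFNb libraries all exceeded the highest untreated one, at 292. The change was 0.75 ± 0.109 (limma adjusted p = 0.00252), and how much of it lies at IFI35 and how much at RPL27 was not tested.

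IFI16 encodes a nuclear DNA sensor of the PYHIN family. Its peak was 22.1 kb wide on chromosome 1, from 158997838 to 159019921, and also covered PYDC5. The scores were 646 and 718 in IRF1-guide clones 11 and 13 with hIFNb, against 352 and 368 untreated. Control clones 1 and 4 had 403 and 638 with hIFNb, against 274 and 443 untreated. Control clone 4 was above clone 1 in both conditions, so that its untreated library, at 443, exceeded the hIFNb library of clone 1. Within each clone the hIFNb library was still the higher, by 1.84-fold and 1.95-fold in IRF1-guide clones 11 and 13 and by 1.47-fold and 1.44-fold in control clones 1 and 4.

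IFI16 changed by 0.73 ± 0.181 over all clones (limma adjusted p = 0.0332), the smallest of the 7 changes and the least firm call between clones. The adjusted p was 0.0921 without IRF1-guide clone 11 untreated, 0.0745 without IRF1-guide clone 13 untreated, 0.0788 and 0.0895 without the hIFNb library of IRF1-guide clone 11 or 13, 0.106 without control clone 1 untreated and 0.0948 when control clone 4 with hIFNb was left out. No mean-variance trend gave 0.105. With the clone as a block the SE was 0.0672 and the adjusted p 1.93e-09, where 16.6% of all peaks were called higher and 15.9% lower. The limma adjusted p with the block was larger at IFI44L (3.11e-09), IFI35 (7.5e-09) and IFI44 (3.71e-07). It was smaller at IFI6, IFI27 and the IFITM cluster.

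None of the flank peaks was called higher between clones, and their differences over all clones ran from 0.09 to 0.90. Of the 6, the peak 28.252 kb from IFI27, which holds the starts of IFI27L1, a relative of IFI27, and of DDX24, a helicase gene, had 87 and 96 in IRF1-guide clones 11 and 13 with hIFNb, against 78 and 65 untreated, and 101 and 110 in control clones 1 and 4 with hIFNb, against 87 and 79 untreated. Its change over all clones was 0.35 with a limma adjusted p of 0.189 between clones and 0.037 with the clone as a block. The peak at the start of VAT1, a vesicle membrane protein gene 12.604 kb from IFI35, had 69 and 48 in IRF1-guide clones with hIFNb, against 58 and 50 untreated, and 45 and 52 in control clones with hIFNb, against 29 and 28 untreated. Its difference of 0.74 within control clones had a limma adjusted p of 0.17, and 0.022 with the clone as a block. A second peak at VAT1, a peak at IFI27L2 and the peak 9.253 kb from IFI6 had differences over all clones of 0.40, 0.19 and 0.09, none of them called.

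The 6 comparisons of the study share libraries, and their values for the same peak are therefore set side by side and not counted as separate evidence. In IRF1-guide clones 6 of the 13 peaks were called higher with hIFNb (1.2% of all peaks called higher, 0.025% lower), and in control clones 4 of 13 (4.07% higher, 0.676% lower), none lower in either. With the clone as a block, 7 of 13 were called higher in IRF1-guide clones (7.44% of all peaks higher, 6.64% lower) and 8 of 13 in control clones (13.4% higher, 11.3% lower), and each included all 7 promoter peaks. The median change of the promoter peaks was 1.20 in IRF1-guide clones and 0.872 in control clones. Every promoter peak had the larger difference in IRF1-guide clones, as the plot of responses by genotype shows.

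**Figure D2:**
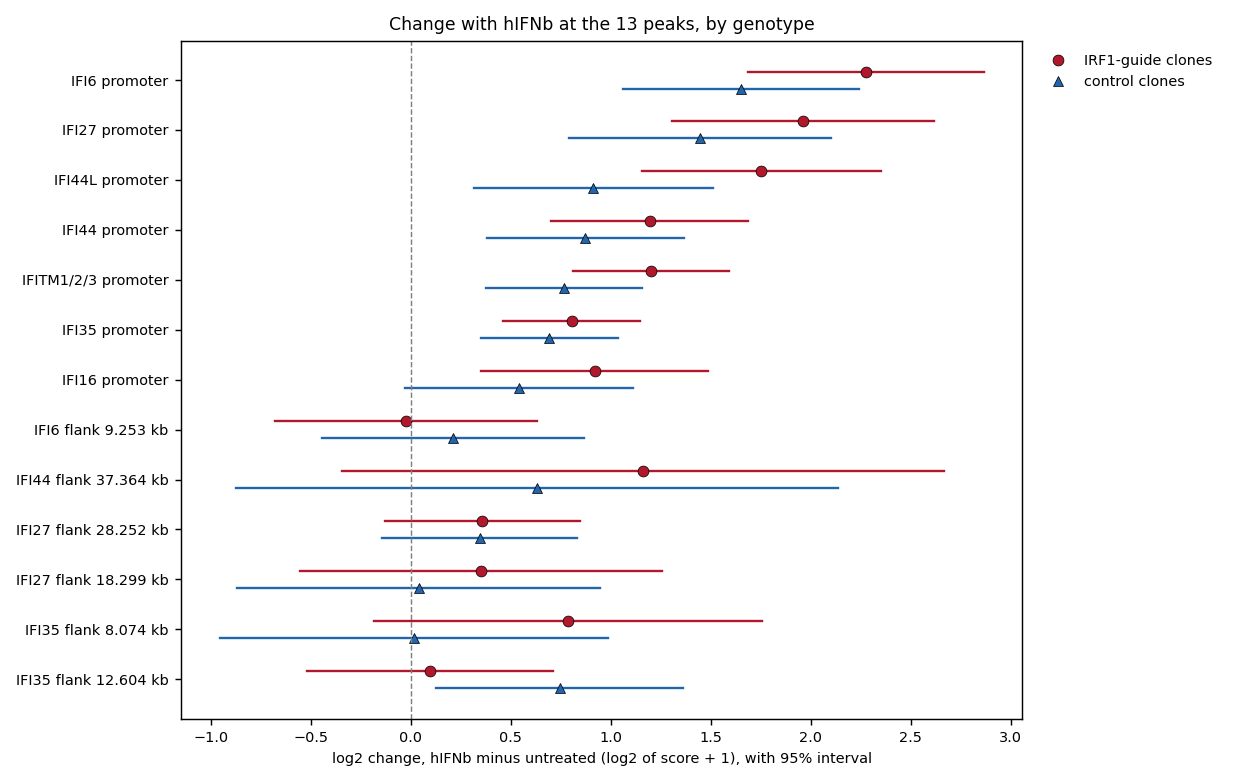
Difference between hIFNb and untreated libraries in log2(score + 1) at the 13 peaks, with 95% confidence intervals from limma, for IRF1-guide clones and control clones (2 clones each). All 7 promoter values lie to the right of 0 in both genotypes, with the interval of IFI16 in control clones reaching 0, from 0.80 to 2.27 in IRF1-guide clones and from 0.54 to 1.65 in control clones, while the intervals of the flank peaks reach 0, apart from the peak 12.604 kb from IFI35 in control clones.

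For IFI6 the response was 2.27 ± 0.266 in IRF1-guide clones (limma adjusted p = 0.0033) and 1.65 ± 0.266 in control clones (limma adjusted p = 0.00745). Without IRF1-guide clone 11 with hIFNb the first adjusted p was 0.0642, and without control clone 4 untreated or control clone 1 with hIFNb the second was 0.0545 or 0.0917. IFI27 rose by 1.96 ± 0.296 in IRF1-guide clones (limma adjusted p = 0.0103) and by 1.45 ± 0.296 in control clones (limma adjusted p = 0.022). Leaving out any of the 4 libraries of IRF1-guide clones ended the first call, at adjusted p of 0.0541 to 0.116. The second was lost without control clone 4 untreated (0.94, adjusted p = 0.113), and without the hIFNb library of control clone 1 (0.165) or 4 (0.0709). Both genes kept a positive difference in every one of these fits.

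The IFITM cluster rose by 1.20 ± 0.176 in IRF1-guide clones (limma adjusted p = 0.00933) and by 0.76 ± 0.176 in control clones (limma adjusted p = 0.0362). The first call was lost without IRF1-guide clone 13 untreated (0.0701) or without IRF1-guide clone 11 or 13 with hIFNb (0.109 and 0.0644). Leaving out the hIFNb library of control clone 1, the highest of the cluster, gave a control difference of 0.51 with an adjusted p of 0.228. The adjusted p was 0.14 and 0.173 without the untreated library of control clone 1 or 4, and 0.0546 and 0.0544 without the hIFNb library of IRF1-guide clone 11 or 13. These last libraries enter the control comparison only through the shared estimate of the spread.

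IFI44L rose by 1.75 ± 0.27 in IRF1-guide clones (limma adjusted p = 0.0109), and its difference in control clones was 0.91 ± 0.27 (limma adjusted p = 0.0889, and 0.000356 with the clone as a block). The first was not called without IRF1-guide clone 11 untreated (0.068) or without IRF1-guide clone 11 or 13 with hIFNb (0.0985 and 0.108), and the second was called without IRF1-guide clone 11 or 13 untreated (0.0468 and 0.0495). IFI44 rose by 1.19 ± 0.223 in IRF1-guide clones (limma adjusted p = 0.0306), with a difference of 0.87 ± 0.223 in control clones (limma adjusted p = 0.053, and 0.000631 with the clone as a block, and 0.0446 with a pseudocount of 5). Leaving out any library but control clone 4 untreated took the IFI44 call in IRF1-guide clones to adjusted p of 0.0528 to 0.236. The pair of neighbours thus passed the threshold between clones in IRF1-guide clones alone, which is no test of a difference between the genotypes.

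For IFI35 the response was 0.80 ± 0.155 in IRF1-guide clones (limma adjusted p = 0.0358) and 0.69 ± 0.155 in control clones (limma adjusted p = 0.0324). Both calls were near the threshold. Removing any single library of the 8 ended the first call, at 0.0635 to 0.253, and the second was lost without any of the 4 control libraries or without IRF1-guide clone 11 or 13 with hIFNb, at 0.0511 to 0.17. IFI16 differed by 0.92 ± 0.257 in IRF1-guide clones (limma adjusted p = 0.16, and 5.56e-08 with the clone as a block) and by 0.54 ± 0.257 in control clones (limma adjusted p = 0.28, and 0.000103 with the block). Its control difference was 0.19 without control clone 1 untreated, 0.21 without control clone 4 with hIFNb, 0.89 without control clone 4 untreated and 0.87 without control clone 1 with hIFNb, none called. It was the 1 promoter peak that passed in neither genotype between clones. With no mean-variance trend IFI6 alone was called in each genotype, and the others that had been called came to limma adjusted p of 0.0508 to 0.167 in IRF1-guide clones and 0.0728 to 0.154 in control clones.

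Whether the response differed between genotypes was tested as the response in IRF1-guide clones minus that in control clones. Between clones none of the 13 peaks was called (0.0% of all peaks in either direction), none had an unadjusted p under 0.05, and all peaks together held 1258 with such a p. With the clone as a block 0 of the 13 were called, against 0.106% of all peaks higher and 0.657% lower, while 5 of the 7 promoter peaks, and 3919 of all peaks, had an unadjusted p under 0.05. Those 5 were the IFITM cluster (limma adjusted p = 0.105 with the block), IFI44L (0.132), IFI16 (0.222), IFI27 (0.288) and IFI6 (0.406). The differences of the 7 promoter peaks were all positive, with a median of 0.438, beside a median of 0.000771 over all peaks. IFI44L had the largest, 0.84 ± 0.382 (95% interval -0.005 to 1.69, unadjusted p = 0.0511, limma adjusted p = 1), with hIFNb to untreated ratios of 4.23 and 2.77 in IRF1-guide clones 11 and 13 and of 1.65 and 2.17 in control clones 1 and 4.

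The intervals of the other 6 were wide between clones. For IFI6 the difference was 0.62 (95% interval -0.21 to 1.46), for IFI27 0.51 (-0.41 to 1.44), for the IFITM cluster 0.44 (-0.11 to 0.99), for IFI16 0.38 (-0.43 to 1.18), for IFI44 0.32 (-0.38 to 1.02) and for IFI35 0.11 (-0.37 to 0.60). Between clones a value of 0 lay inside all 7 intervals. With the clone as a block the intervals, not adjusted for the number of peaks, were 0.32 to 1.36 for IFI44L, 0.0021 to 1.24 for IFI6, 0.092 to 0.94 for IFI27, 0.18 to 0.69 for the IFITM cluster, 0.10 to 0.65 for IFI16, -0.20 to 0.84 for IFI44 and -0.19 to 0.42 for IFI35. Thus 0 lay outside 5 of the 7 within clones, none of which passed the adjustment.

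Single libraries moved these differences. IFI27 differed by 0.0073 without control clone 1 untreated, by 1.02 without control clone 4 untreated and by 0.33 without control clone 4 with hIFNb. For IFI16 the difference was 0.72 without control clone 1 untreated, 0.71 without control clone 4 with hIFNb, 0.033 without control clone 4 untreated and 0.047 without control clone 1 with hIFNb. The IFITM cluster gave 0.69 and 0.18 without control clone 1 or 4 with hIFNb. Without IRF1-guide clone 13 untreated IFI6 gave 0.34 and IFI44 0.17, without IRF1-guide clone 11 untreated IFI44L gave 0.46, and without control clone 1 untreated IFI35 gave 0.069. All stayed positive and none was called.

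The hIFNb to untreated ratios by clone did not overlap between genotypes at any of the 7 promoter peaks, with both IRF1-guide clones above both control clones. The same order, taken on log2(score + 1), held for 20.6% of all peaks, and the opposite order for 21.6%. At IFI6 the ratios were 4.2 and 5.95 in IRF1-guide clones 11 and 13, against 3.39 and 3.03 in control clones 1 and 4. At IFI27 they were 4.31 and 3.59 in IRF1-guide clones, against 2.19 and 3.43 in control clones, the closest approach being control clone 4. Of the 6 flank peaks, 1 had both IRF1-guide clones above and 2 had both below.

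The difference between genotypes was then taken in each condition. In untreated cells 0 of the 13 peaks were called (0.0% of all peaks in either direction), and 5 of 13 had an unadjusted p under 0.05, as did 3851 of all peaks. Both untreated IRF1-guide clones scored below both untreated control clones at 6 of the 7 promoter peaks and at 4 of the 6 flank peaks, which held for 22.5% of all peaks. The opposite order held at 1 flank peak and at 18.1% of all peaks. That peak, at VAT1 12.604 kb from IFI35, was among the 5. It was higher in IRF1-guide clones by 0.90 ± 0.278 (unadjusted p = 0.00877, limma adjusted p = 0.254). The median difference of the promoter peaks was -0.436, against -0.0295 over all peaks. The largest was at IFI44L, -0.92 ± 0.27 (unadjusted p = 0.00643, limma adjusted p = 0.232), followed by IFI27 at -0.81 ± 0.296 (0.321), IFI6 at -0.50 ± 0.266 (0.499) and the IFITM cluster at -0.44 ± 0.176 (0.369), where the values in brackets are limma adjusted p. IFI44 at -0.30, IFI35 at -0.22 and IFI16 at 0.05 were smaller. This order was not stable, since IFI27 stood at -0.31 without control clone 1 untreated and at -1.32 without control clone 4 untreated, and IFI44L at -0.54 without IRF1-guide clone 11 untreated. IFI6 gave -0.78 and -0.22 without IRF1-guide clone 11 or 13 untreated, IFI44 gave -0.16 without IRF1-guide clone 13 untreated, and IFI16 gave -0.30 and 0.39 without control clone 1 or 4 untreated. Score totals were also lower in the IRF1-guide clones, and with totals made equal the IFI44L difference was -0.88, that of IFI27 -0.77 and that of the IFITM cluster -0.40.

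With hIFNb the genotypes were closer at these promoters, apart from IFI16, where the difference was 0.05 untreated and 0.42 with hIFNb. None of the 13 peaks was called, against 0.238% of all peaks called higher in IRF1-guide clones and 2.19% called lower. An unadjusted p under 0.05 was found at 1 of 13, and at 5200 of all 31961 peaks. The median difference of the promoter peaks was 0.00208. IFI6 differed by 0.13, IFI44 by 0.02, the IFITM cluster by 0.00, IFI44L by -0.08, IFI35 by -0.10, IFI27 by -0.30 and IFI16 by 0.42, with limma adjusted p of 0.458 to 0.999. Both IRF1-guide clones with hIFNb were below both control clones with hIFNb at IFI27 and IFI35 (24.2% of all peaks) and above them at IFI16 (19.6% of all peaks). The response difference given above is this difference minus the one in untreated cells, so the 3 are not independent.

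**Figure D3:**
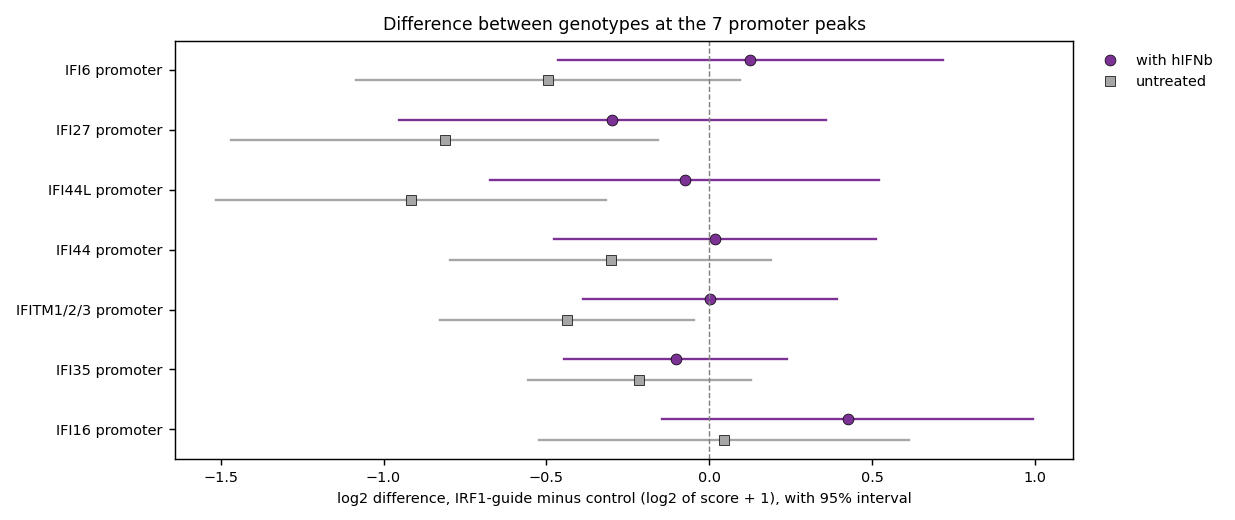
Difference between IRF1-guide and control clones in log2(score + 1) at the 7 promoter peaks, with 95% confidence intervals from limma, with hIFNb and untreated (2 clones a group). Untreated values lie left of 0 at 6 of 7 peaks, from -0.92 at IFI44L to -0.22 at IFI35, with IFI16 at 0.05, while values with hIFNb lie on both sides of 0 and none was called.

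The flank peak 37.364 kb from IFI44, only 533 bp wide, had the largest genotype difference among the 13. It scored 1 and 4 in IRF1-guide clones 11 and 13 with hIFNb, 0 and 1 in these clones untreated, 13 and 11 in control clones 1 and 4 with hIFNb, and 6 and 9 in those clones untreated. All 4 IRF1-guide libraries were below all 4 control libraries, an order whose share over all peaks was not counted. Within 1 condition, both IRF1-guide clones lay below both control clones at 22.5% of all peaks untreated and 24.2% with hIFNb. At this flank peak the difference was -2.04 ± 0.68 with hIFNb (limma adjusted p = 0.162) and -2.56 ± 0.68 untreated (limma adjusted p = 0.189). At scores this low the pseudocount of 1 shrinks the difference. Neither was called, and the peak's difference with hIFNb over all clones, 0.90 ± 0.481, was not called either (limma adjusted p = 0.271). The map of the loci shows where it and the other flank peaks lie.

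**Figure D4:**
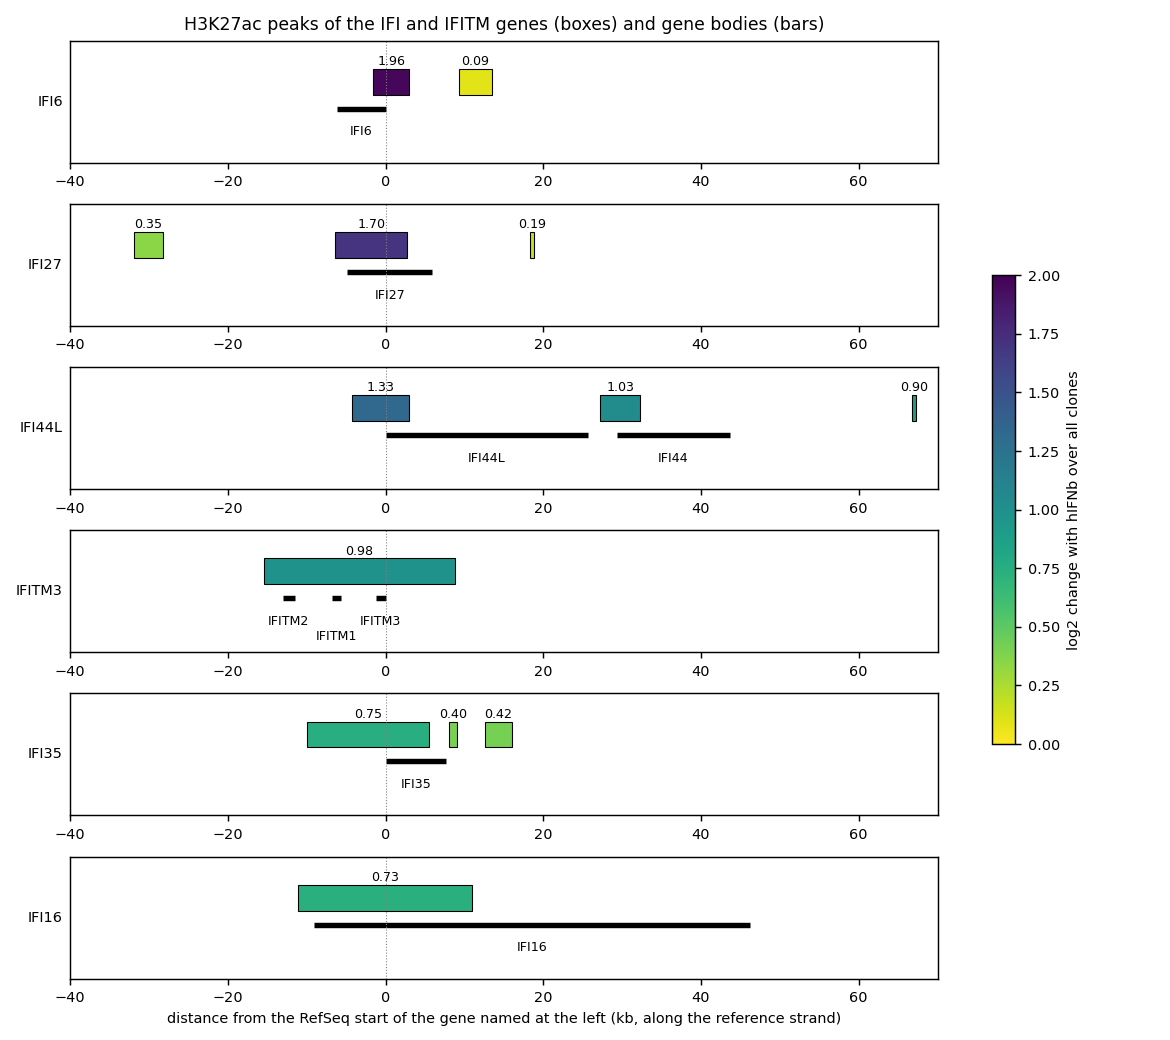
Peaks (boxes) and gene bodies (bars) around each locus in kb from the RefSeq start of the gene named at the left, with colour and printed number giving the log2 change with hIFNb over all clones. Boxes at the starts carry 0.73 to 1.96 and flank boxes 0.09 to 0.90, and the IFITM, IFI16 and IFI35 promoter peaks are 15.4 to 24.1 kb wide, against 4.61 to 9.17 kb at IFI6, IFI27, IFI44L and IFI44.

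The promoter peaks varied in step with each other over the 8 libraries, apart from IFI16. Pearson correlations of log2 scores were 0.872 to 0.991 among the other 6, highest between IFI44 and IFI6, and 0.525 to 0.738 between IFI16 and each of them. These are descriptions over 8 libraries that share the same hIFNb contrast. Outside the 9 genes, the promoter peaks closest to the mean profile of the 7, among 6764 candidates, included those of EIF2AK2, the double-stranded RNA-activated kinase (r = 0.995), HERC6, a ligase of the HERC family (0.989), MX1, a GTPase that blocks virus replication (0.988), and PARP10, a mono-ADP-ribosyltransferase (0.988).

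Levels can be ordered between genes only per kb of peak. In IRF1-guide clones with hIFNb the mean score per kb was 50.6 at the IFITM cluster, 32.5 at IFI27, 30.9 at IFI16, 27.6 at IFI35, 26.6 at IFI6, 24.3 at IFI44 and 21.6 at IFI44L, against 22.0, 8.29, 16.3, 15.8, 5.42, 10.6 and 6.54 in the same order in IRF1-guide clones untreated. In control clones with hIFNb these values were 51.3, 40.3, 23.6, 29.7, 24.4, 24.0 and 22.9, against 29.8, 15.5, 16.2, 18.4, 7.59, 13.1 and 12.1 in control clones untreated. IFI6 had the lowest level per kb in untreated cells of both genotypes and the IFITM cluster the highest. With hIFNb the values of IFI6, IFI44 and IFI44L were close to each other.

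The upstream pathway and other targets give the setting for these values. Of the 7 peaks of receptor, kinase and ISGF3 genes, 4 were called higher over all clones, none lower, and 3 were not called. Over all peaks 6.55% were called higher. With hIFNb over all clones STAT2 rose by 1.78 ± 0.164 (limma adjusted p = 0.000212) and IRF9 by 1.34 ± 0.157 (limma adjusted p = 0.000695). Of the 27 peaks of 29 other antiviral interferon-stimulated genes, 24 were called higher and none lower (25 with the clone as a block, which added SAMD9L at an adjusted p of 1.39e-08, against 0.0593 between clones), with a median of 1.42, above the 1.03 of the IFI and IFITM promoter peaks. The largest changes on that list were at the shared peak of RSAD2 and CMPK2, 3.52 ± 0.196 (limma adjusted p = 2.59e-05), and at HERC6, 2.99 ± 0.175 (limma adjusted p = 2.77e-05).

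In the response difference between genotypes 0 of these 27 peaks were called between clones (0.0% of all peaks in either direction). An unadjusted p under 0.05 was found at 3 of the 27 and at 1258 of all peaks. The median of the 27 was 0.537 beside the 0.438 of the IFI and IFITM promoter peaks. With the clone as a block 3 of the 27 were called higher, against 0.106% of all peaks higher and 0.657% lower. They were MX1 (0.91, limma adjusted p = 0.00663 with the block), HERC6 (1.13, 0.00663) and IFIT3 (0.60, 0.0463), named after their values were seen. IFIT3 is a protein of the IFIT family of antiviral RNA-binding complexes. In untreated cells 0 of 27 were called (0.0% of all peaks in either direction) and the median difference was -0.615, beside -0.436. In these comparisons the medians of the antiviral list had the same sign as those of the IFI and IFITM promoter peaks. All came from the same libraries. With hIFNb none of the 27 was called, against 0.238% of all peaks called higher and 2.19% called lower. The median genotype difference of the antiviral list with hIFNb was -0.249, with 5 of 27 positive. For the IFI and IFITM promoter peaks it was 0.00208, with 4 of 7 positive.

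Relatives of the 9 genes were also in the table. AIM2, a cytoplasmic DNA sensor of the PYHIN family and a neighbour of IFI16, had scores of 84 and 71 in IRF1-guide clones 11 and 13 with hIFNb, against 16 and 23 untreated, and of 61 and 74 in control clones 1 and 4 with hIFNb, against 7 and 11 untreated. It rose by 2.38 ± 0.235 (limma adjusted p = 0.000286), beside 0.73 for IFI16 in the same libraries. IFI27L1 and IFI27L2, relatives of IFI27 on either side of it, have peaks already given among the flank peaks. Their differences of 0.35 and 0.19 were not called between clones. With the clone as a block the IFI27L1 peak was called (limma adjusted p = 0.037). By the rule used for genes outside the 9, MNDA, PYHIN1, IFITM5 and IFITM10 were given no peak. Peaks elsewhere in a gene that has a listed start were not looked for. The 6 peaks of 8 housekeeping genes gave 0 calls over all clones, none at an unadjusted p under 0.05, with a median of -0.00562, GAPDH at 0.07 and ACTB at 0.15.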

How the data were processed

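H3K27ac was measured in 8 libraries of 4 CFPAC1 clones. Bowtie2 and the build GRCh38 (hg38) are named for the alignment, per the submitters' processing notes. Not given in the sources used here are its version, the peak caller, merging, counter and scaling. The deposited values are the authors' normalised counts per peak, rounded to whole numbers by the authors and treated as a score. They are not raw counts, so no count model was used. Peak positions, and distances measured from a peak's edge, are as deposited. Rescaling by the authors can shift all peaks of a library together, and wide merged peaks mix neighbouring genes.

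Scores were analysed as log2(score + 1) in limma 3.58.1 (R 4.3.3), as contrasts of 4 group means moderated along a mean-variance trend, with p-values adjusted by Benjamini-Hochberg over 31961 peaks. Requiring a score above 0 in 2 libraries removed no peak. The script was tested on simulated data. Replicates are clones, so p-values measure the spread between clones. The labels pair the libraries of a clone, whose deviations from group means correlated at 0.392 in IRF1-guide and 0.437 in control clones, and the clone was also fitted as a block. That block could not be fitted to differences between genotypes in 1 condition. Motifs were searched in RefSeq promoters. All 9 genes are named with every peak. Of each other list up to 3 genes with the largest changes, the relatives, GAPDH and ACTB, and the 5 most similar promoters were to be named, and 1 item of these is not reported here. Members and lists were chosen with earlier results of these data known.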

Additional observations from a re-analysis of the deposited data

Results flagged for a closer look

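Among the pathway, antiviral, related, housekeeping and marker genes listed beside the 9, the response to hIFNb differed between IRF1-guide and control clones at 4 promoter peaks when the clone was fitted as a block, and at none of them between clones, where each had a limma adjusted p of 1. The lists held 7 pathway, 27 antiviral, 3 related and 6 housekeeping peaks, and 8 ductal, 2 leukocyte, 1 fibroblast and 3 endothelial peaks. Of all peaks, 0.106% were called higher and 0.657% lower with the block. The 4 peaks were named after their values were seen. The response in IRF1-guide clones exceeded that in control clones by 1.134 at HERC6 and by 0.9114 at MX1 (limma adjusted p = 0.00663 each with the block), by 0.743 at IRF9 (0.0414) and by 0.6019 at IFIT3 (0.0463). At HERC6 the scores were 361 and 330 in IRF1-guide clones 11 and 13 with hIFNb, against 30 and 27 untreated, and 471 and 338 in control clones 1 and 4 with hIFNb, against 89 and 61 untreated.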

How the results depend on the processing

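The alternatives were a pseudocount of 5, a mean score of at least 10, equal totals, quantile normalisation, no mean-variance trend, a 10 kb link, an absolute log2 change of at least 1, the clone as a block, and each library left out in turn. Over all clones the count of called peaks, 7, was 4 when an absolute change of at least 1 was asked for and 6 to 7 without 1 library. In control clones it was 4, and became 8 with the replicate block, 1 with no trend, 2 with a change of at least 1, and 0 to 5 without 1 library. In IRF1-guide clones it was 6, 1 with no trend, and 0 to 5 without 1 library. Leaving out 1 library also leaves fewer libraries in the fit, and the cause of these changes was not tested. Counts in the 3 genotype comparisons were 0 throughout.

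Of 336 promoter values without 1 library, 279 kept direction and call, 48 lost the call, 2 gained it and 7 changed sign, none of these called. The 7 were IFI16 in untreated cells (-0.30 to 0.39) and, with hIFNb, IFI44L (-0.21 to 0.063), IFI44 (-0.035 to 0.071) and the IFITM cluster (-0.25 to 0.26), all for IRF1-guide against control. Of 238 values under the other settings, 224 kept both, 9 lost and 5 gained the call, and none changed sign. At the 13 peaks the block changed no call beyond those given with the results. With 2 clones a group and depth unknown, small genotype differences could not be resolved.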
